A study of Mus musculus with 2 samples.

Results

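Endothelial cells line the blood and lymph vessels, and a small group of genes marks them in most tissues. Of 10 such endothelial identity genes, 9 had a transcript cluster of their own on the array: Cdh5, Emcn, Pecam1, Kdr, Tek, Tie1, Cldn5, Esam and Vwf. They are 9 of 30145 genes that the platform's annotation named through a cluster with a single gene symbol. The only cluster that lists Egfl7 also lists a microRNA gene, so Egfl7 is described apart. Each member had exactly 1 cluster, so no choice between clusters was needed.

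RNA came from adipose-derived stromal cells, spindle-shaped progenitors that attach and spread when the tissue is digested and plated, kept in a medium with 15% fetal bovine serum. One group was a global Wisp1 knockout (KO), made by flanking exons 1 to 5 of the gene on chromosome 15 with loxP sites and crossing to a Cre-neo mouse, and the other was wild type (WT). Both groups were C57BL/6J mice of 6 to 10 weeks, the fat pad was inguinal, and each group had 1 array. Wisp1 (Ccn4) encodes a secreted matricellular protein, and the study placed it in heterotopic ossification, the formation of bone in soft tissue. The labels call the deletion global, and do not say how many animals gave cells to an array.

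Endothelial cells hold together through junction proteins, of which VE-cadherin (Cdh5), PECAM-1, claudin-5 and ESAM are the best known. They respond to vascular endothelial growth factors through the receptor VEGFR2 (Kdr) and to angiopoietins through the receptor TIE2 (Tek) with its relative TIE1. Vessels run through fat, and endothelial cells can be carried into a stromal culture, but these genes are not the usual markers of the stromal cells themselves.

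All values are log2 expression values from RMA, the usual background correction, between-array normalization and summary of Affymetrix arrays, as the authors deposited them. Every difference is the KO value minus the WT value. With 1 array per group no difference can be set against a replicate spread, no test was possible and no p-value is given, and each statement compares these 2 arrays. Wisp1 was at 5.40 on the KO array and 7.79 on the WT array, a difference of -2.39, and only 1 named gene had a lower difference. As a guide to dim signal, 1524 olfactory and vomeronasal receptor genes, which act in the nose, were used. Of them, 95% lay below 3.82 on the KO array and below 3.84 on the WT array. The highest was at 6.84 on the KO array and 6.73 on the WT array, above every member. Wisp1 itself, at 5.40 on the KO array, also lay above the 95% limit of that array, though its exons 1 to 5 were targeted. The source of this remaining signal was not tested. A place above the limit is therefore not taken to show that a gene is expressed. In what follows, within the range of the receptor genes means below the 95% limits. Probes differ in brightness, so a place in that range says where a probe's signal lies and does not rank members by transcript amount.

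Of the 9 members, Cdh5 and Emcn were higher on the KO array, by 0.80 on the log2 scale each, and the other 7 differed by -0.14 to 0.11. Thus 2 of 9 were at least 1.5-fold higher, against 0.401% of all named genes, and 0 were at least 1.5-fold lower, against 0.352%. The same 2 were the only members at least 1.2-fold higher (4.7% of named genes), 0 were at least 1.2-fold lower (5.35%), and none was 2-fold higher (0.0332%) or 2-fold lower (0.0564%). The median difference of the 9 was 0.065, beside a median of 0 over all named genes. The members were chosen with results of these arrays known, so these shares describe the 2 arrays and are no test of the group. In a bulk sample, more cells of a type and more RNA per cell cannot be told apart.

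**Figure D1:**
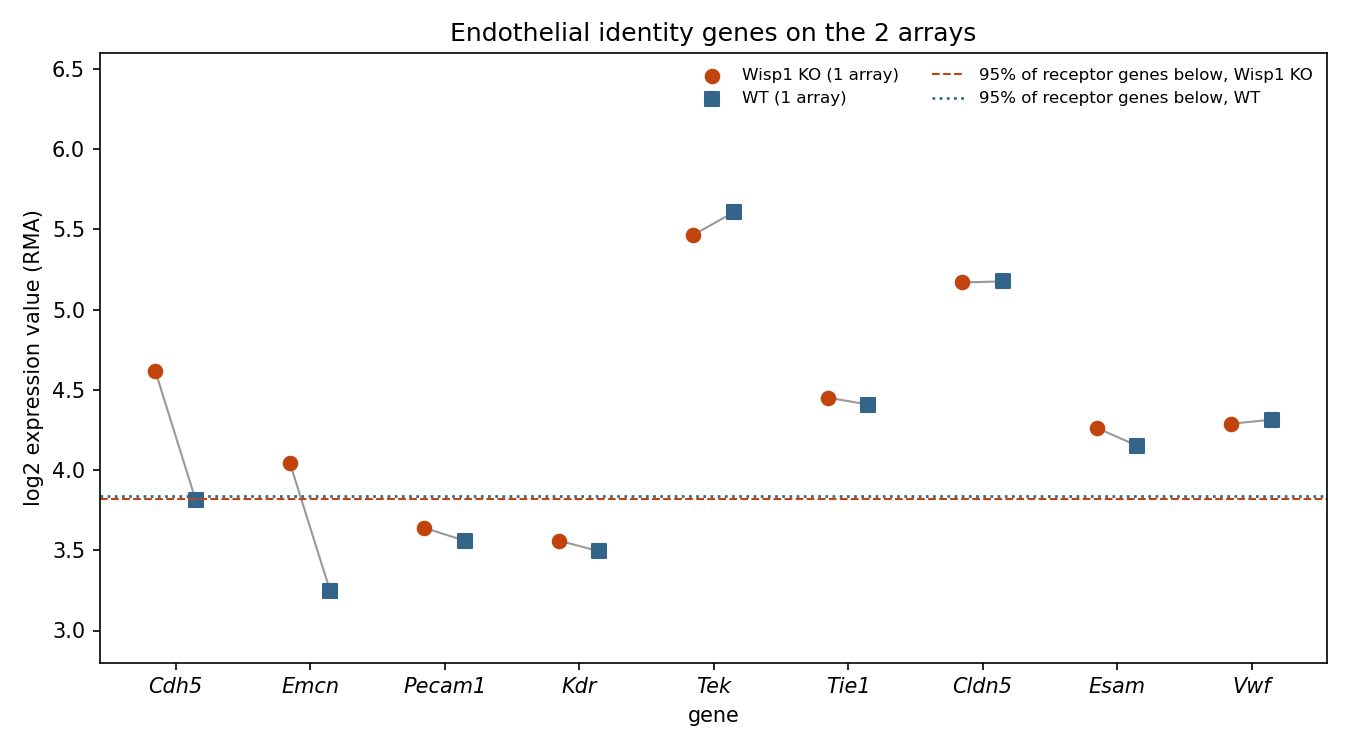
Log2 expression values (vertical axis) of the 9 endothelial identity genes (horizontal axis) on the Wisp1 KO array (circles) and the WT array (squares), 1 array each, with no error bars because there are no replicates. The dashed and dotted lines mark the level below which 95% of olfactory and vomeronasal receptor genes lay on the KO array (3.82) and the WT array (3.84). Cdh5 and Emcn lie above their line on the KO array and below it on the WT array, Pecam1 and Kdr lie below it on both, and the other 5 lie above it on both.

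The junction genes did not move together. Cdh5 encodes VE-cadherin, the cadherin of the adherens junction between endothelial cells. Cdh5 was at 4.62 on the KO array and 3.81 on the WT array, a difference of 0.80 or 1.75-fold. Its WT value lay just under the 95% limit of the receptor genes, with 94.4% of them below it, and on the KO array 98.95% were below it. Of all named genes, 35 had a higher difference than Cdh5. Pecam1 encodes the adhesion molecule CD31, which is found on endothelial cells, platelets and several leukocytes. Pecam1 was at 3.64 on the KO array and 3.56 on the WT array (0.080), inside the range of the receptor genes on both. Cldn5 encodes claudin-5, a tight junction protein of brain and other vessels. It was at 5.17 on the KO array and 5.18 on the WT array, and this difference of -0.0064 was the smallest of the members. Its sign was positive when the arrays were centred on their medians. Esam, an adhesion molecule of endothelial cells and platelets, was at 4.26 on the KO array and 4.15 on the WT array (0.11). Among the junction genes, Cdh5 alone was past 1.2-fold.

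Emcn encodes endomucin, a sialomucin on the surface of venous and capillary endothelium. It was at 4.04 on the KO array and 3.24 on the WT array, a difference of 0.80 or 1.74-fold. On the WT array 85.8% of the receptor genes lay below it, and on the KO array 96.2% did. Thus its WT signal could not be told from that of genes that these cells are not known to use, and its KO signal stood a little above most of them. A total of 37 named genes had a higher difference. The smaller of the pair, Emcn, was separated from the next member, Esam, by 0.69 on the log2 scale.

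The growth factor and angiopoietin receptors differed little. Kdr, the main receptor for VEGF-A, was at 3.56 on the KO array and 3.49 on the WT array (0.065), within the range of the receptor genes on both. Tek, the angiopoietin receptor TIE2, was at 5.47 on the KO array and 5.61 on the WT array, and its difference of -0.14 was the lowest of the members. Tie1, an orphan relative that pairs with TIE2, was at 4.45 on the KO array and 4.41 on the WT array (0.043). Tek was the only one of these receptors at or above the median level of all named genes, 4.65. Cldn5 was the only other member that reached it.

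Vwf encodes von Willebrand factor, a large protein that endothelial cells store and release and that platelets bind after injury. It was at 4.29 on the KO array and 4.31 on the WT array (-0.025). Platelets and megakaryocytes use it too. Of 5 measured platelet and megakaryocyte markers 0 were past 1.2-fold, as were few of all named genes (4.7% higher, 5.35% lower). The lowest difference was 0 for Pf4, the platelet factor 4 gene. The highest of these 5 was 0.095 for Gp9, a subunit of the platelet receptor for von Willebrand factor. Gp1bb, also on the list, has no cluster of its own. The cluster that lists it with Septin5 was at 8.14 on the KO array and 7.85 on the WT array. That difference of 0.29 is past 1.2-fold, and the signal cannot be assigned to one of the genes.

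Egfl7 encodes a secreted protein of vessel outgrowth, and one of its introns holds the microRNA gene Mir126a, whose product is abundant in endothelial cells. The cluster that lists Egfl7 with Mir126a was at 5.44 on the KO array and 5.52 on the WT array (-0.071), and its signal cannot be assigned to one of the genes. Mir126b, a microRNA gene on the other strand of the same stretch, had a cluster of its own, at 2.92 on the KO array and 2.94 on the WT array (-0.023), within the range of the receptor genes. The mature sequences are printed because they show how closely these genes overlap, with the seed, bases 2 to 8, in capitals. They are from RefSeq (GRCm38.p6), 5′ to 3′, and lie at chr2:26591402-26591423 on the plus strand for the first and at chr2:26591363-26591385 and chr2:26591399-26591420 on the minus strand for the others. The first and the last share 19 genome positions on opposite strands, and the 3 seeds differ.
mmu-miR-126a-3p: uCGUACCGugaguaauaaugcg
mmu-miR-126b-3p: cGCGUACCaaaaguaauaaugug
mmu-miR-126b-5p: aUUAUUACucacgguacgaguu

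**Figure D2:**
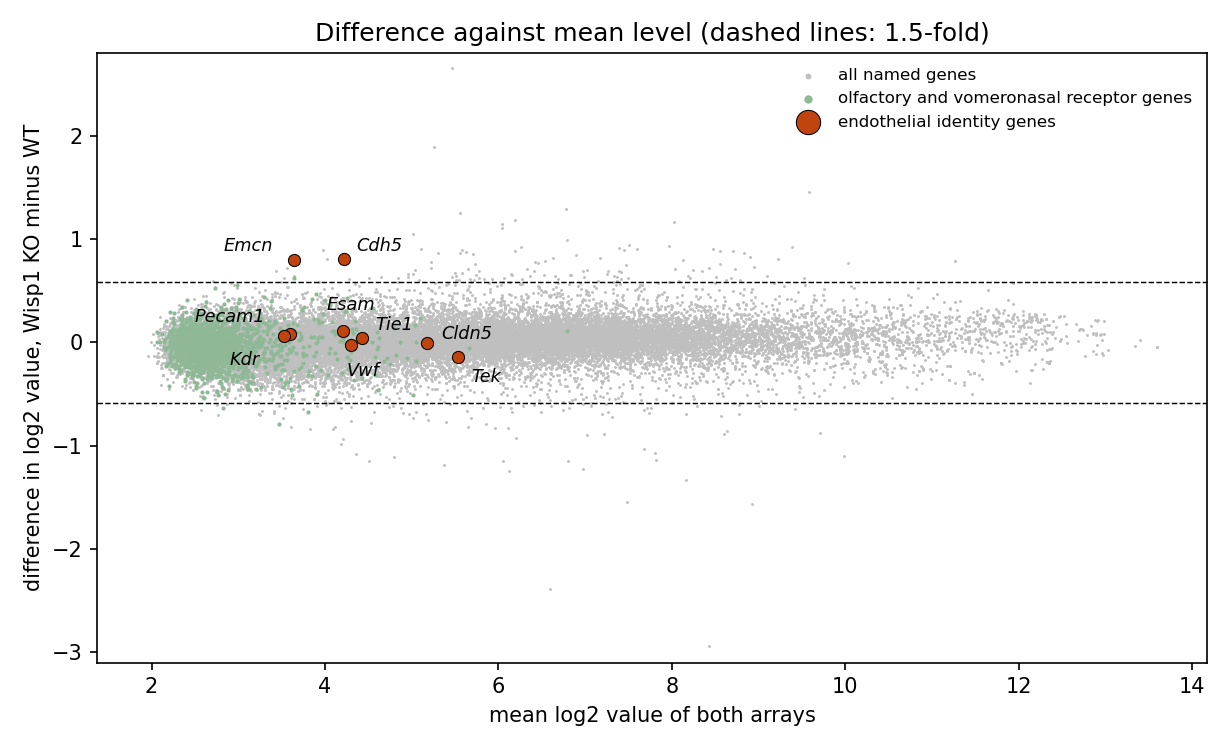
Difference in log2 value, Wisp1 KO minus WT (vertical axis), against the mean log2 value of both arrays (horizontal axis) for all 30145 named genes (grey), the 1524 olfactory and vomeronasal receptor genes (green) and the 9 endothelial identity genes (red). Dashed lines mark a 1.5-fold difference. Cdh5 and Emcn lie above the upper line in the dim part of the plot, where few genes do, and the other 7 lie within the cloud.

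The spread of the receptor genes gives a rough scale for differences between dim probes on these arrays. Their differences ran from -0.80 to 0.62, with 95% of them from -0.37 to 0.29 and a median of -0.036. The differences of Cdh5 and Emcn exceeded the highest of these 1524, and those of the other 7 members lay within the central 95%. In size, however, the lowest receptor difference, -0.80, was close to those of Cdh5 and Emcn. At the 1.5-fold limit, 1 receptor gene was higher and 3 were lower. This is a spread across genes on a single pair of arrays and does not replace replicates. Most receptor genes were also dimmer than Cdh5 and Emcn, with a median of 2.66 on the KO array and 2.72 on the WT array. RMA compresses differences of dim probes, so their spread is not matched to the level of these 2 members. The members were chosen with results known, so the comparison is no test. Below the median level lay 15072 named genes. On the KO array 13 of them (0.0863%) were higher by 1.5-fold or more, Cdh5 and Emcn included, and 36 (0.239%) were lower by as much.

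ETS-family factors, which bind sites with the core GGAA, are known to act on many endothelial promoters. Promoter sequences were at hand for 6 members, and Cdh5 was not among them. The one of Emcn is printed as that of a member with a large difference, beside those of Tek and Cldn5, which had small ones. Kdr and Tie1 also had small differences, and their windows are counted below but not printed. Each run gives the 250 bases before the gene's start, 5′ to 3′ on the gene's strand, from RefSeq (GRCm38.p6), with GGAA and its reverse complement TTCC in capitals. The windows lie at chr3:137340828-137341077 for Emcn, chr4:94739039-94739288 for Tek and chr16:18776597-18776846 for Cldn5, all on the plus strand.
Emcn: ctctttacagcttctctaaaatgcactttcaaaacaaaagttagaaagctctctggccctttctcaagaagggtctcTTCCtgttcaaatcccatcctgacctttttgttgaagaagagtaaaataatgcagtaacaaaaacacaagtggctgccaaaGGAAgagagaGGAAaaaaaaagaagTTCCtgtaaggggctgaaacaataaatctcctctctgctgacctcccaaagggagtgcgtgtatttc
Tek: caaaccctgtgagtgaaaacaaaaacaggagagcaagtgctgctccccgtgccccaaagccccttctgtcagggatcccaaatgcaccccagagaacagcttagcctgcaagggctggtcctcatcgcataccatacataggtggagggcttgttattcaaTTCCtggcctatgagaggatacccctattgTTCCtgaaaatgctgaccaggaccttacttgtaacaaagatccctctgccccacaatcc
Cldn5: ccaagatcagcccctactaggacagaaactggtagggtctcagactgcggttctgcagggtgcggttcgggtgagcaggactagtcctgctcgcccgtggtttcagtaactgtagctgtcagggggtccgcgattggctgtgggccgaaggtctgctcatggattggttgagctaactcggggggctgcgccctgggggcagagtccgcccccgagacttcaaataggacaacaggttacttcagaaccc

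The core was found 4 times on either strand in the Emcn window, 2 times in that of Tek and 0 times in that of Cldn5. It occurred 4 times in the Kdr window and 7 times in that of Tie1, and 5, 3 and 1 times in the 3 windows of Egfl7. Of 32851 promoter windows of the same length 93.4% held it, with a median of 3 matches. Kdr, with a difference of 0.065, had as many as Emcn. A match is a run of letters, and whether a factor binds there was not measured.

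No other listed endothelial gene had a difference as high as those of Cdh5 and Emcn. The lists held 71 further genes with a cluster of their own (transcription factors, receptors, surface proteins and enzymes, and lymphatic markers). None reached 1.5-fold higher (0.401% of all named genes), 5 reached 1.5-fold lower (0.352%), and the median difference was 0. At 1.2-fold, 3 were higher (4.7% of all named genes) and 8 lower (5.35%). The upward counts are near these shares and are no finding about the lists. The downward counts are above these shares, in the direction opposite to Cdh5 and Emcn. The lists were chosen with earlier results known, so this is a description and no test. The same shares stand beside the counts of every list below. Of the 71, 45 lay at or above the median level, and many of these are known to be used by stromal cells as well.

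Among 21 endothelial transcription factors, 0 were past 1.2-fold in either direction. Few of all named genes were (4.7% higher, 5.35% lower), so 0 in a short list is no finding about it. The highest difference was that of Hey1, a Notch target, at 4.35 on the KO array and 4.16 on the WT array (0.18). Gata2, a factor of blood and endothelial cells, was lowest, at 7.35 on the KO array and 7.53 on the WT array (-0.18). Erg, an ETS factor that maintains endothelial identity, was at 3.69 on the KO array and 3.61 on the WT array, within the range of the receptor genes on both. It is named here outside the naming rule, after its value was seen.

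Of 15 other endothelial receptors, 1 was past 1.2-fold in each direction. Plxnd1, a semaphorin receptor, was at 7.82 on the KO array and 7.40 on the WT array (0.42). Adgrl4, an adhesion receptor of vessels and heart, was at 4.34 on the KO array and 4.82 on the WT array (-0.48). Ptprb, the phosphatase VE-PTP that binds both VE-cadherin and TIE2, differed by -0.23 (4.37 on the KO array, 4.60 on the WT array) and is likewise named after its value was seen.

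At the 1.2-fold limit, 2 of 29 other surface and enzyme genes were higher and 7 lower. Plvap, which forms the diaphragms of fenestrated vessels, had the highest difference, with 5.14 on the KO array and 4.77 on the WT array (0.37). The 5 genes at least 1.5-fold lower included Aqp1, a water channel, at 5.55 on the KO array and 6.38 on the WT array (-0.83). Cgnl1, which codes for the junction protein paracingulin, differed by -0.67, and Tm4sf1, a small membrane protein, by -0.64. Thbd, the anticoagulant receptor thrombomodulin, differed by -0.63, and Slco2a1, a prostaglandin transporter, by -0.62. Lymphatic markers were within 1.2-fold in all 6 measured genes, as most named genes were. Lyve1, a hyaluronan receptor, was highest (3.73 on the KO array, 3.57 on the WT array, 0.15). Pdpn, which stromal cells also make, was lowest (10.22 on the KO array, 10.48 on the WT array, -0.26). The chemokine gene Ccl21a, a further lymphatic marker, has no cluster of its own. The 3 clusters that list it with near-identical genes differed by 0.44, 0.41 and 0.19, and their signal cannot be assigned to one gene.

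**Figure D3:**
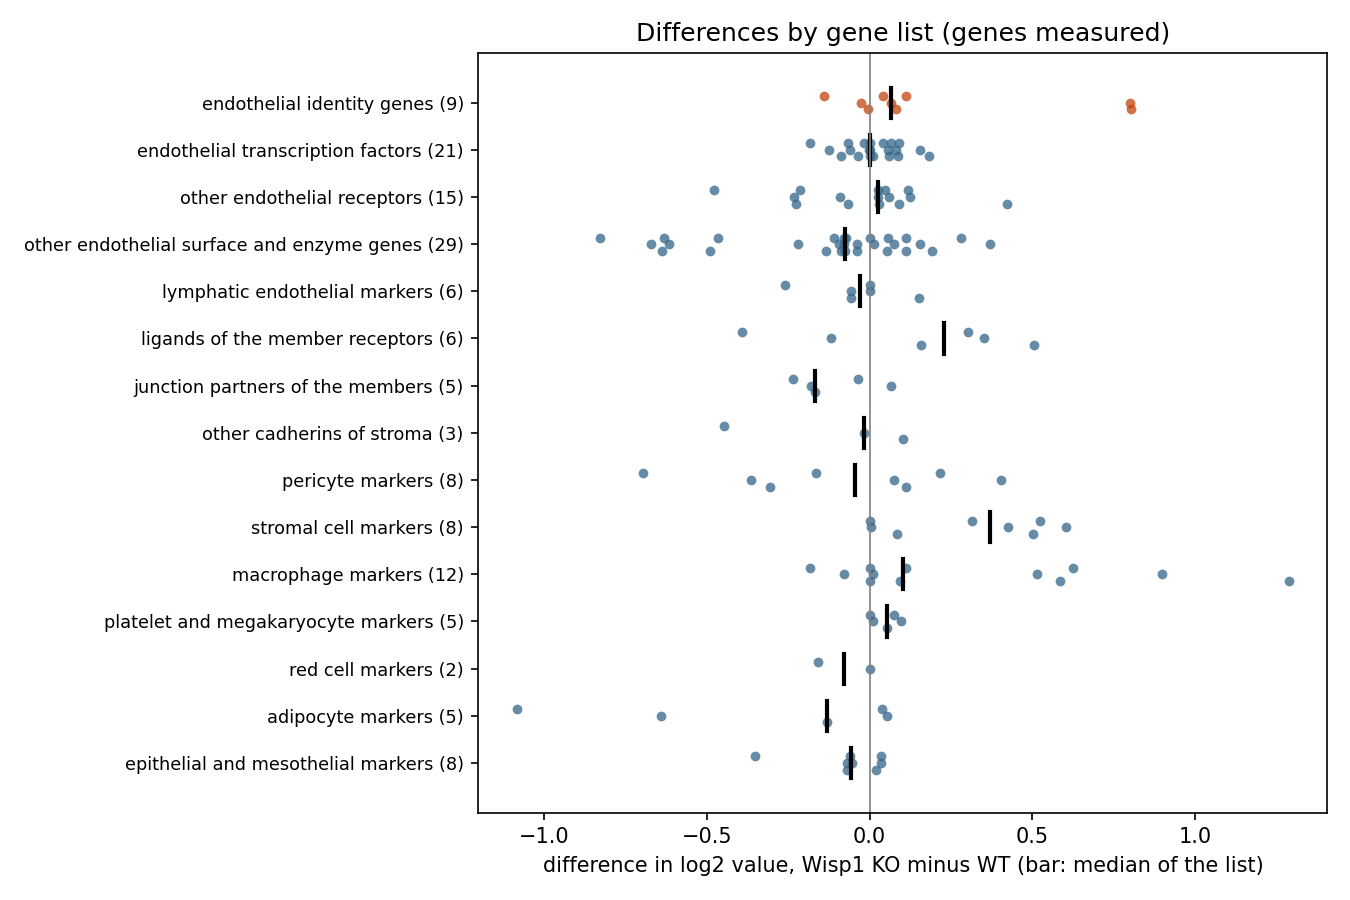
Difference in log2 value, Wisp1 KO minus WT (horizontal axis), for each measured gene (points) of the endothelial identity genes (top row, red) and 14 other lists (rows below, blue), with the number of genes in brackets. Black bars are list medians, and the vertical spacing of points has no meaning. In the top row Cdh5 and Emcn stand at 0.80 apart from the other 7 members, no gene of the 4 other endothelial lists lies above 0.42, and the highest points of all belong to macrophage markers.

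The ligands of the member receptors differed in both directions. At the 1.2-fold limit, 3 of 6 genes were higher and 1 lower. Angpt4, an activating ligand of TIE2 in the mouse, was at 7.83 on the KO array and 7.32 on the WT array (0.50). Angpt2, a ligand of TIE2 that can block it, was at 6.45 on the KO array and 6.10 on the WT array (0.35). Angpt1, the main activating ligand, lay within the range of the receptor genes at 3.65 on the KO array and 3.49 on the WT array (0.16). Vegfa, the ligand of VEGFR2, was at 9.52 on the KO array and 9.22 on the WT array (0.30). Vegfd, which in the mouse acts mainly on VEGFR3 and is listed as Figf on the platform, was at 11.08 on the KO array and 11.47 on the WT array (-0.39). Vegfc, a ligand of VEGFR3 that can also bind VEGFR2, differed by -0.12, with 6.03 on the KO array and 6.15 on the WT array.

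Proteins that work with VE-cadherin and the other junction members are made in most cell types. All 5 measured partner genes lay within 1.2-fold, as most named genes did. Tjp1, the scaffold ZO-1 of tight junctions, was highest (7.89 on the KO array, 7.82 on the WT array, 0.066). Ptpn11, the phosphatase SHP2 that binds PECAM-1, was lowest (8.30 on the KO array, 8.53 on the WT array, -0.24). Of 3 cadherins that stromal cells make, Cdh11 had a difference of 0.10 (10.29 on the KO array, 10.18 on the WT array) and Cdh13, a cadherin without a cytoplasmic tail, one of -0.45 (5.01 on the KO array, 5.46 on the WT array).

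Markers of other cells that a fat culture can hold were set beside the members. At the 1.2-fold limit, 5 of 12 macrophage markers were higher (4.7% of all named genes) and 0 lower (5.35%). The 3 at least 1.5-fold higher were Lyz2, the lysozyme gene of macrophages (1.29), Fcer1g, the common chain of Fc receptors (0.90), and Ctss, a lysosomal protease (0.63). Cd14, a receptor for bacterial lipopolysaccharide, was lowest (4.72 on the KO array, 4.90 on the WT array, -0.18). Adgre1, Ptprc, Mrc1 and Itgam lay within the range of the receptor genes on both arrays. Csf1r (0.0093) and Aif1 (0) lay above the 95% limit on both arrays and hardly differed. The part of these cells in the differences of Cdh5 and Emcn was not tested.

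Pericytes, which wrap small vessels, gave differences in both directions: 1 of 8 markers passed 1.2-fold upward and 3 downward. Des, the muscle filament desmin, was highest (5.30 on the KO array, 4.90 on the WT array, 0.41), and Mcam, an adhesion molecule that endothelial cells also carry, was lowest (7.82 on the KO array, 8.51 on the WT array, -0.69). By the same measure 5 of 8 stromal markers were higher and 0 lower. Lum, the proteoglycan lumican, was highest (5.39 on the KO array, 4.79 on the WT array, 0.60), and Dpp4, a surface peptidase of progenitors, was at 2.79 on each array. The collagen gene Col1a1 lay at 11.90 on the KO array and 11.40 on the WT array, as is usual for stromal cells.

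No adipocyte marker of 5 was past 1.2-fold upward, and 2 were past 1.5-fold downward, namely the hormone genes Retn (3.81 on the KO array, 4.90 on the WT array, -1.08) and Adipoq (3.86 on the KO array, 4.50 on the WT array, -0.64). On the KO array Retn lay within the range of the receptor genes and Adipoq just above the 95% limit. Lep, the leptin gene, was highest at 0.053. Of 8 epithelial and mesothelial markers 1 was past 1.2-fold, the keratin gene Krt18 (4.22 on the KO array, 4.58 on the WT array, -0.35), and the keratin gene Krt8 was highest at 0.035. Of the red cell list 2 genes had a cluster of their own, Alas2 (0) and Slc4a1 (-0.16).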

How the data were processed

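Total RNA of Wisp1 KO and of WT stromal cells was labelled with biotin and hybridised to 1 array per group, per the labels' protocols. The authors deposited log2 values per transcript cluster, made by RMA with Partek per the submitters' processing notes; versions, the arrays normalized together and the genome build are not given in the sources used here. That the base is 2 was taken from the range of the values. RMA makes arrays alike in distribution and compresses differences of dim probes. The 2 arrays held 65956 transcript clusters, of which 2938 had identical values on both.

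A cluster was named when the platform annotation gave it 1 distinct symbol (30604 clusters; several for 2146, none for 33206). A gene with several clusters was taken at its brightest. List genes missing under that symbol were sought after updating symbols through Entrez IDs with the RefSeq table of GRCm38.p6. Differences are KO minus WT. Folds of 1.2, 1.5 and 2 were counted, with no test. Named genes were the members, Wisp1, the ligands, and in every other list the highest, the lowest and those past 1.5-fold; names outside this rule, such as Col1a1, Adgre1 and Gp49a, were chosen after their values were seen. The members and lists were chosen with earlier results of these data known. Alternatives were other normalizations, cluster choices, symbols and filters. The code was run on simulated arrays with known shifts added. This checks the calculation and not the reliability of a difference between 2 arrays. Python 3.11.15, pandas 2.3.3 and statsmodels 0.14.6 were used. With 1 array a group, their number limits the precision.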

Additional observations from a re-analysis of the deposited data

How the results depend on the processing

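The values of the members depend only on the scaling of the arrays, since each has 1 cluster. Under quantile normalization, median centring and loess centring (span 0.3) the difference of Cdh5 was 0.816 to 0.819 and that of Emcn 0.815 to 0.828. As deposited, each was 0.80. No member moved by more than 0.031 under these 3 settings, and the sign of Cldn5 changed (-0.028 to 0.0087). The other 4 settings (the mean over clusters, the brightest cluster on either array, clusters with several symbols kept, updated symbols) left every measured member's value as it was by construction and say nothing about stability. The median difference of the members, 0.065, was 0.19 with the mean in its place. Its sign turned over the 2 members at or above the median level (-0.074) and over the 5 above the 95% limit of the receptor genes on both arrays (-0.0064). Both filters leave out Cdh5 and Emcn, and over the first 0 members were at least 1.2-fold or 1.5-fold higher. With the 99th percentile of the receptor genes in place of the 95th, 2 members in place of 5 lay above it on both arrays. No paired analysis was possible because each group has 1 array.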

Other observations

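The dim named genes that were at least 1.5-fold higher on the KO array, 13 in all, were looked at after their values were seen. Besides Cdh5 and Emcn they were 11 genes with differences of 0.60 to 0.89. Of these, 6 have provisional Gm symbols or are microRNA genes: Gm5970 (0.81), Gm25014 (0.71), Gm24251 (0.69), Gm24449 (0.62), Gm15149 (0.62) and Mir1298 (0.60). The others were Gp49a, a myeloid receptor gene, at 4.42 on the KO array and 3.53 on the WT array (0.89), Mmp12, the macrophage elastase gene, at 3.97 on the KO array and 3.32 on the WT array (0.65), Fmo1, a flavin monooxygenase gene (0.63), Ctss (0.63) and Olfr598, an olfactory receptor gene (0.62).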
